A study of Danio rerio with 20 samples.

Results

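Pyruvate dehydrogenase kinases are mitochondrial enzymes that phosphorylate the alpha subunit of the pyruvate dehydrogenase component of the pyruvate dehydrogenase complex and thereby switch the complex off, so that less pyruvate is turned into acetyl-CoA. Pyruvate dehydrogenase phosphatases remove the phosphate. In mammals PDK2 is expressed in most tissues, PDK4 is known for its induction in skeletal muscle by fasting and exercise, PDK1 is a target of hypoxia-inducible factor, and PDK3 is the family member least inhibited by pyruvate.

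The genes were chosen by name: all rows of the count table whose Ensembl zebrafish symbol, read without regard to case, is PDK1, PDK2, PDK3 or PDK4, with or without a paralogue letter. This gave 6 genes of 32105, namely PDK1 (ENSDARG00000013128), PDK2 (ENSDARG00000020876), PDK2 (ENSDARG00000059054), PDK3 (ENSDARG00000014527), PDK3 (ENSDARG00000099791) and PDK4 (ENSDARG00000054848), and all 6 passed the filter on low counts that left 17025 genes for testing. Each PDK2 and PDK3 symbol stands for a pair of Ensembl genes, and the gene names used here do not say which of a pair carries which paralogue letter, so the Ensembl ID is given with the symbol. How reads that fit several genes were counted is not given in the sources used here, so reads could be shared within a pair.

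Muscle RNA of male zebrafish of the strain labelled AB JxTu was sequenced in 20 libraries, 5 in each of 4 groups. The groups were 3-year-old fish with the perturbation swim-tunnel (3y_swim), 3-year-old fish with no perturbation (3y_control), 1-year-old fish with swim-tunnel (1y_swim) and 1-year-old fish with no perturbation (1y_control). A swim tunnel makes fish swim against flowing water, and the labels give neither its speed nor its duration, nor the time from swimming or feeding to sampling. The labels do not say that each library is a separate fish, so p-values measure the spread between these libraries, and libraries are numbered within a group only to name them. The design asks what the swim tunnel did at each age, what age did with and without it, and whether the effects differed between ages.

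Library totals ran from 31550213 to 48920974 counts. Levels below are CPM, counts relative to library size, on library sizes scaled by the TMM method, and levels of different genes are compared only per length, as RPKM, which is CPM per kilobase of gene length. The 16 fast fibre marker genes, none at 0 in any library, summed to 120900 to 192500 CPM in 3y_swim, against 113600 to 157300 CPM in 3y_control. They summed to 139400 to 200600 CPM in 1y_swim, against 95310 to 136000 CPM in 1y_control, with no overlap on these scaled library sizes. The TMM factors were 0.659 to 0.946 in 1y_swim, against 1.04 to 1.25 in 1y_control, and 0.837 to 1.15 in 3y_swim, against 1.05 to 1.17 in 3y_control. A lower factor raises every CPM of its library, so the fast fibre sums and the factors are not independent. Summed CPM of 19 exocrine pancreas marker genes was 41.6 to 257 in 1y_swim, against 4.36 to 17.4 in 1y_control, with at most 2 of the 19 genes at 0 in a library of these groups. Summed CPM of 19 liver marker genes was 86.8 to 988 in 1y_swim, against 9.99 to 180 in 1y_control, with at most 3 of them at 0. In bulk muscle, fewer cells of a type and less RNA per cell cannot be told apart.

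The most abundant kinase message per length was PDK2 (ENSDARG00000059054), which was the highest of the 6 genes in 18 of 20 libraries. It made up 70.3% ± 16.9 of the summed RPKM of the 6 genes in 3y_swim, 55.9% ± 17.8 in 3y_control, 85.8% ± 4.84 in 1y_swim and 53.5% ± 30.4 in 1y_control (mean ± SD, n = 5 each). The exceptions were the libraries 1y_control 1, where PDK3 (ENSDARG00000099791) led, and 3y_control 3, where PDK2 (ENSDARG00000020876) led. PDK3 (ENSDARG00000014527) was the rarest, with group means between 0.403 and 0.601 RPKM and 4 to 82 counts per library.

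The summed level of the family was 659 ± 222 RPKM in 1y_swim, against 157 ± 115 RPKM in 1y_control, and 212 ± 129 RPKM in 3y_swim, against 158 ± 64.0 RPKM in 3y_control (mean ± SD, n = 5 each). The 1y_swim libraries ran from 384 to 973 RPKM and lay above all 1y_control libraries, which ran from 41.7 to 291 RPKM. With PDK2 (ENSDARG00000059054) left out of the sum, the 1y_swim mean was 89.0 ± 29.3 RPKM, against 47.9 ± 10.6 RPKM in 1y_control. These sums overlapped, with 50.8 to 127.9 RPKM in 1y_swim and 38.1 to 65.1 RPKM in 1y_control. Without PDK2 (ENSDARG00000059054) the summed level was 46.8 ± 9.66 RPKM in 3y_swim, against 60.8 ± 10.2 RPKM in 3y_control. This is a description over the members, with no test.

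**Figure D1:**
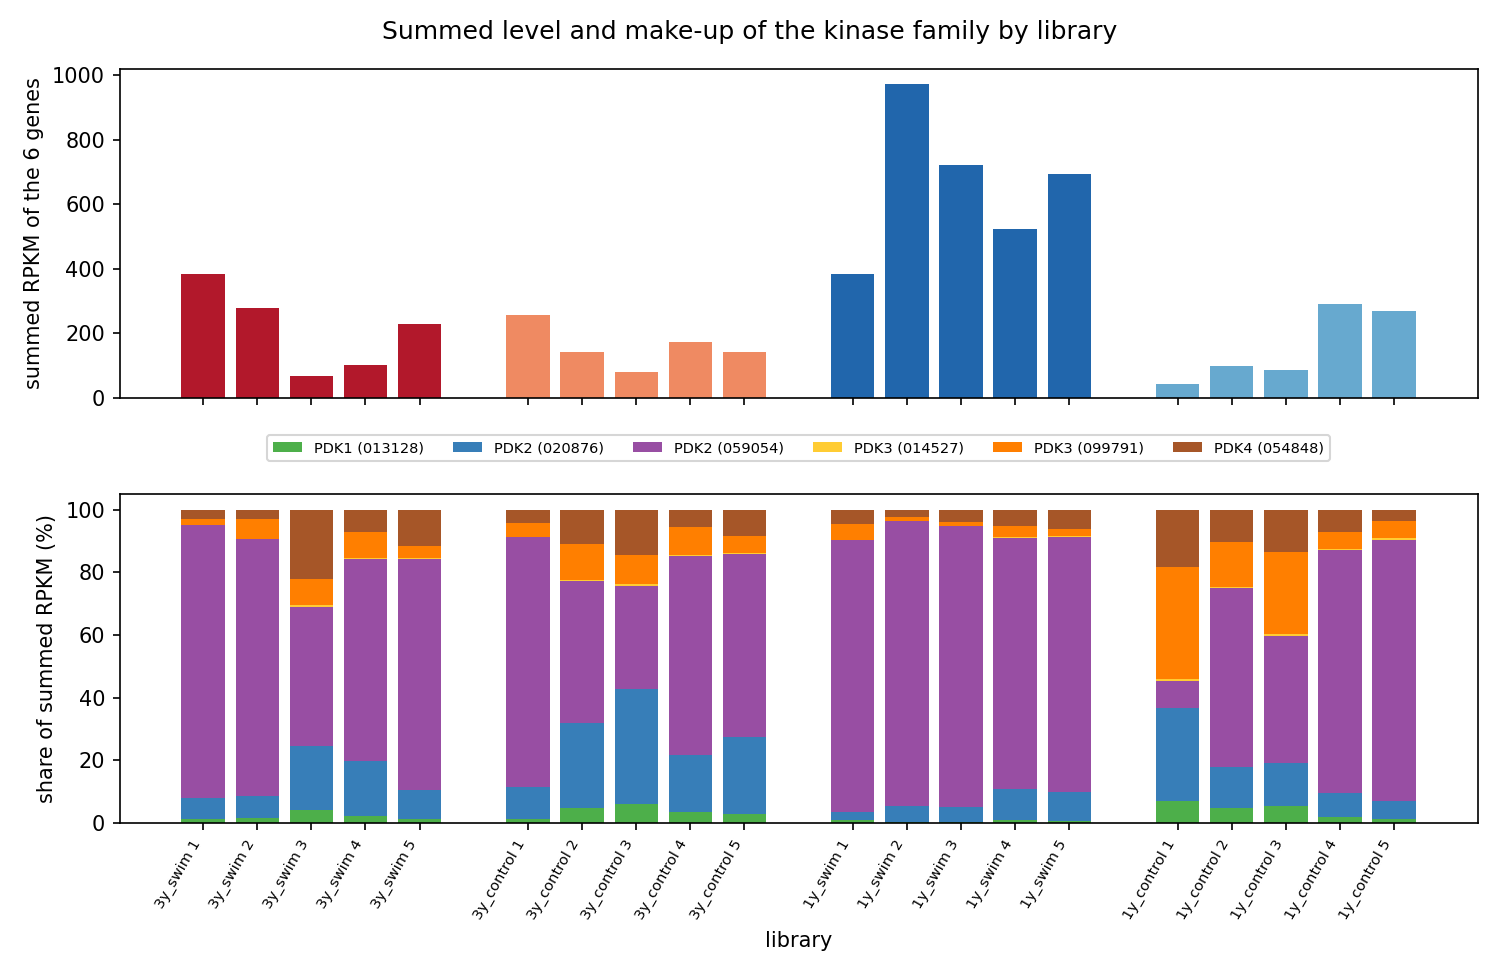
Summed RPKM of the 6 kinase genes (upper panel, bars, 1 per library) and the share of each gene in that sum in percent (lower panel, stacked bars), for the 5 libraries of 3y_swim, 3y_control, 1y_swim and 1y_control; genes are labelled by symbol and the last digits of the Ensembl ID. All 5 1y_swim bars exceed all 1y_control bars, and PDK2 (ENSDARG00000059054) takes 80.1% to 90.9% of the sum in 1y_swim libraries.

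PDK2 (ENSDARG00000059054) had 793, 539, 72.1, 156 and 397 CPM in 3y_swim libraries 1 to 5, and 481, 151, 61.7, 258 and 193 CPM in 3y_control libraries. It had 790, 2094, 1537, 993 and 1338 CPM in 1y_swim libraries, and 8.47, 132, 81.1, 535 and 534 CPM in 1y_control libraries. Every 1y_swim library lay above every 1y_control library, while the 3-year-old groups overlapped over most of their range. Its highest library exceeded its lowest 11.01-fold in 3y_swim, 7.79-fold in 3y_control and 63.1-fold in 1y_control, the widest of the 6 members in each of these groups. In 1y_swim its range was 2.65-fold, and those of PDK3 (ENSDARG00000014527), PDK2 (ENSDARG00000020876) and PDK1 were wider, at 12.3-fold, 6.58-fold and 3.28-fold. By mean level the order was 1y_swim, 3y_swim, 1y_control and 3y_control, and the 3 lower groups overlapped each other.

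PDK2 (ENSDARG00000020876) had 95.2, 71.8, 52.6, 65.9 and 79.9 CPM in 3y_swim libraries 1 to 5, and 99.5, 143, 109, 117 and 129 CPM in 3y_control libraries. It had 35.5, 189, 129, 192 and 234 CPM in 1y_swim libraries, and 45.9, 48.2, 43.2, 81.7 and 57.6 CPM in 1y_control libraries. At 3 years all swim libraries lay below all control libraries. At 1 year 4 of 5 swim libraries lay above all control libraries, and 1y_swim 1 lay below all of them and was the lowest of all 20 libraries for this gene. By mean level the order was 1y_swim, 3y_control, 3y_swim and 1y_control, and of the neighbours in that order 3y_control and 3y_swim did not overlap, while the other pairs did.

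PDK4 had 55.6, 42.5, 73.7, 35.8 and 127 CPM in 3y_swim libraries 1 to 5, and 53.3, 74.5, 55.0, 45.7 and 56.8 CPM in 3y_control libraries. It had 87.3, 107, 137, 134 and 202 CPM in 1y_swim libraries, and 37.0, 48.9, 54.6, 100.5 and 45.8 CPM in 1y_control libraries. The 1-year-old groups overlapped through 1y_control 4 alone, which lay above 1y_swim 1. The mean was 66.95 CPM in 3y_swim, 57.0 CPM in 3y_control and 57.4 CPM in 1y_control, and these 3 groups overlapped.

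PDK3 (ENSDARG00000099791) had 15.99, 39.0, 12.7, 19.3 and 20.2 CPM in 3y_swim libraries, and 25.03, 36.8, 16.8, 35.5 and 17.6 CPM in 3y_control libraries. It had 42.9, 30.7, 20.0, 42.2 and 37.7 CPM in 1y_swim libraries, and 33.8, 31.8, 50.4, 36.7 and 34.9 CPM in 1y_control libraries. Within each age the swim and control ranges overlapped. PDK1 averaged 5.80 ± 2.09 CPM in 3y_swim, 8.20 ± 2.63 CPM in 3y_control, 6.13 ± 3.00 CPM in 1y_swim and 7.04 ± 1.94 CPM in 1y_control (SD, n = 5 each), and all 4 groups overlapped. PDK3 (ENSDARG00000014527) averaged between 0.615 and 0.917 CPM in the 4 groups, with overlap between all of them.

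**Figure D2:**
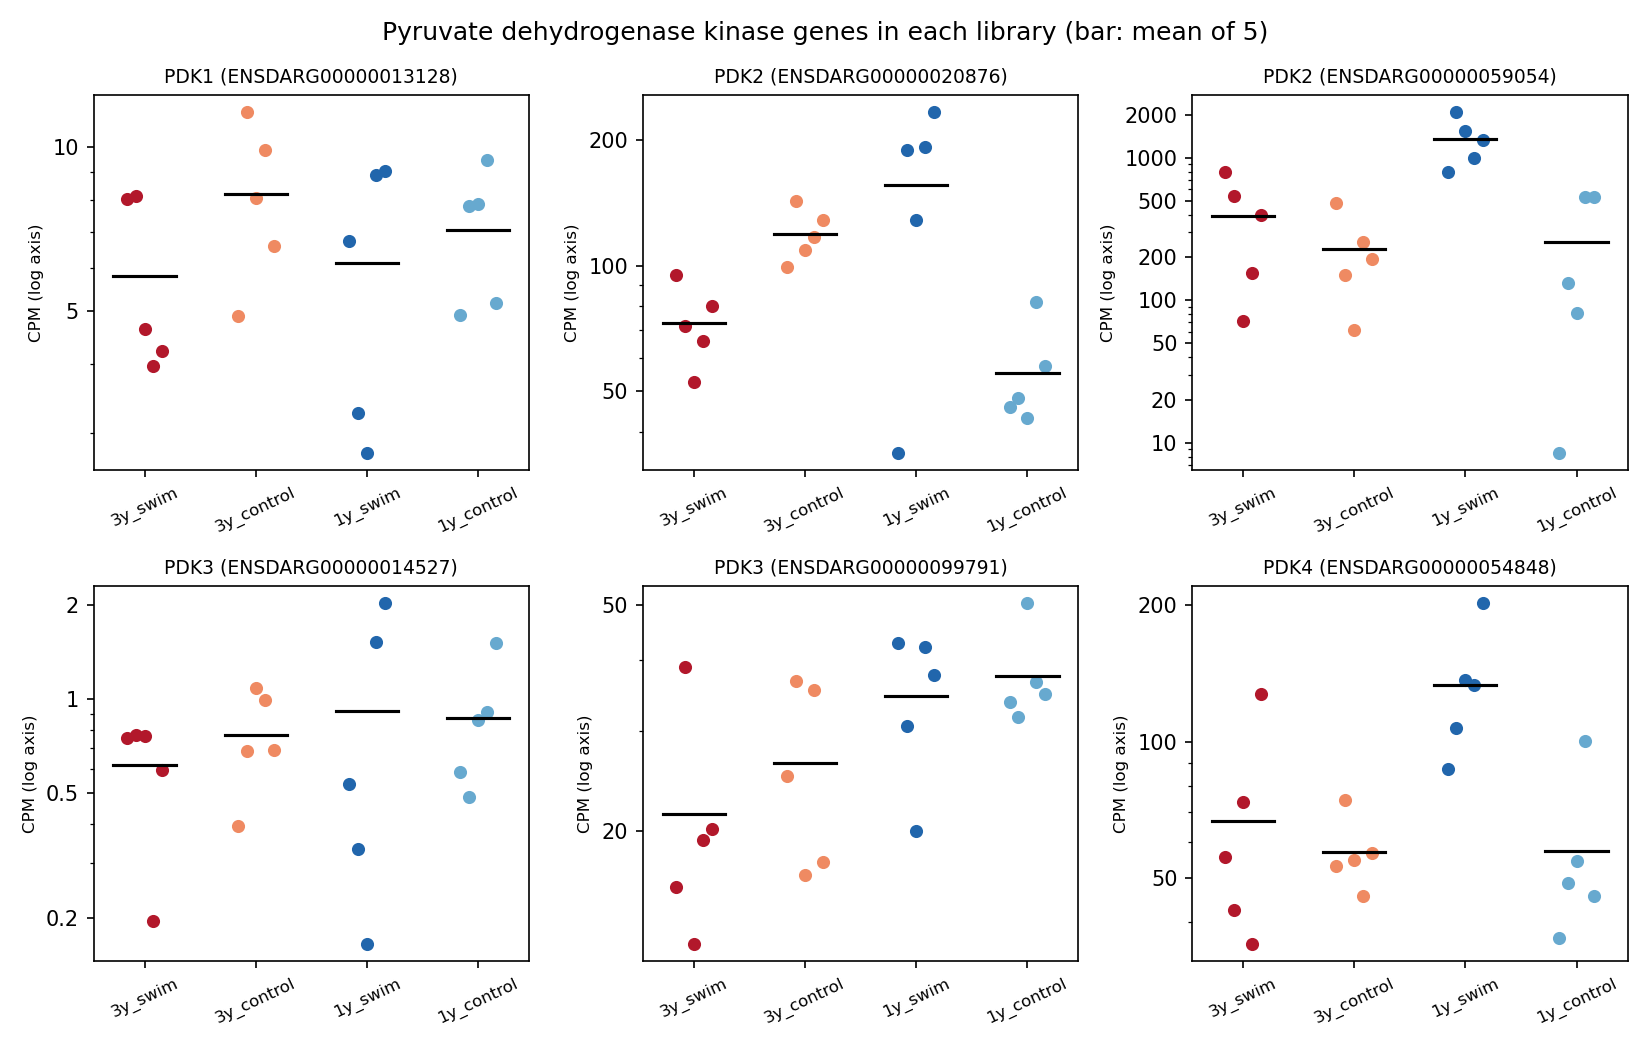
CPM of each kinase gene by library (points, log axis, own range per panel) in 3y_swim, 3y_control, 1y_swim and 1y_control, with the mean of 5 libraries as a bar. PDK2 (ENSDARG00000059054) shows no overlap of 1y_swim, 790 to 2094 CPM, with 1y_control, 8.47 to 535 CPM, and PDK2 (ENSDARG00000020876) lies lower in 3y_swim than in 3y_control and, except for 1 library, higher in 1y_swim than in 1y_control.

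In 1-year-old fish the swim tunnel went with more message of 1 kinase gene past the threshold: PDK2 (ENSDARG00000020876) averaged 156 ± 77.0 CPM in 1y_swim, against 55.3 ± 15.7 CPM in 1y_control (SD, n = 5 each). This is a log2 change of 1.49 ± 0.33 (SE), or 2.82-fold, with an adjusted p of 0.036 (edgeR quasi-likelihood test, Benjamini-Hochberg over all genes tested). PDK2 (ENSDARG00000059054) had the larger but more variable difference, 1350 ± 507 CPM in 1y_swim, against 258 ± 256 CPM in 1y_control. Its log2 change was 2.39 ± 0.81, or 5.24-fold, and its adjusted p of 0.126 missed the threshold of 0.05 although the groups did not overlap. PDK4 averaged 133.5 ± 43.4 CPM in 1y_swim, against 57.4 ± 24.95 CPM in 1y_control, a log2 change of 1.22 ± 0.32 with an adjusted p of 0.0647.

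Thus 1 of 6 members was called at 1 year, against 1.14% of all genes tested (0.793% higher, 0.347% lower). Also 1 of 6 members had no overlap between the groups, against 4.02% of all genes in either direction, 2.41% with the swim libraries higher and 1.61% with them lower. The members' median log2 change was 0.66, against -0.01 over all genes tested. PDK1, PDK3 (ENSDARG00000014527) and PDK3 (ENSDARG00000099791) had log2 changes of -0.19 ± 0.33, 0.10 ± 0.53 and -0.11 ± 0.29, with adjusted p between 0.778 and 0.939.

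The call for PDK2 (ENSDARG00000020876) was lost without any one of 1y_control 1, 1y_control 2, 1y_control 3, 1y_swim 2, 1y_swim 3 and 1y_swim 5, with log2 changes of 1.31 to 1.56 and adjusted p of 0.0676 to 0.104. Without 1y_swim 1, the library in which it was lowest, its log2 change was 1.75 with an adjusted p of 0.000734. PDK4 was called without 1y_control 4 (1.52, adjusted p = 0.0271), without 1y_swim 1 (1.34, 0.0451) or without 3y_swim 5 (1.22, 0.041). DESeq2 called 3 members here, PDK2 (ENSDARG00000020876), PDK2 (ENSDARG00000059054) with an adjusted p of 0.0469 and PDK4 with 0.0112. The 1.14% of all genes is the edgeR share and cannot be set beside this count. Alternatives other than leaving out 1 library called 0 to 1748 genes in this comparison, against 194 in the edgeR fit. The lower TMM factors and the higher fast fibre, pancreas and liver marker sums of 1y_swim moved with these differences, and their part in them was not tested. The marker sums are CPM and so contain the factor. Without 1y_swim 2 and 1y_swim 3, which have the lowest TMM factors, the log2 change of PDK2 (ENSDARG00000020876) was 1.47 with an adjusted p of 0.258, and with library totals unscaled it was 1.13 (0.0492) while the median of all genes stood at -0.40.

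In 3-year-old fish no kinase gene passed the threshold, where 0.0705% of all genes were called, 0.047% higher and 0.0235% lower. By edgeR 1 of 6 members had an unadjusted p under 0.05, against 1537 of the 17025 genes tested, and DESeq2 called 0 of 6. That member was PDK2 (ENSDARG00000020876), with 73.1 ± 15.9 CPM in 3y_swim, against 119.5 ± 17.0 CPM in 3y_control (SD, n = 5 each). Its log2 change was -0.71 ± 0.32, with an adjusted p of 0.532, and it was the member of 6 with no overlap between the groups, where 1.67% of all genes do not overlap, 0.875% with the swim libraries higher and 0.793% with them lower. The 6 endothelium marker genes summed to 115 to 123 CPM in 3y_swim, against 130 to 148 CPM in 3y_control, and their part in this difference was not tested. PDK2 (ENSDARG00000059054) had a log2 change of 0.77 ± 0.77 (adjusted p = 0.808) and PDK4 one of 0.23 ± 0.32 (0.869).

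The swim effects on PDK2 (ENSDARG00000020876) at 3 years and at 1 year differed, by -2.20 ± 0.46 on the log2 scale (adjusted p = 0.0457, edgeR interaction test). It was the only member of 6 called for this difference, where 0.335% of all genes tested were called, 0.0529% with a positive and 0.282% with a negative difference. The differences for PDK2 (ENSDARG00000059054) and PDK4 were -1.62 ± 1.09 (adjusted p = 0.532) and -0.99 ± 0.45 (0.320). All 6 members had a negative difference, with a median of -0.70, against 0.01 over all genes. The call sat at the threshold: leaving out 1 library at a time gave log2 differences of -2.46 to -2.02 and kept it in 2 of 20 fits, those without 1y_control 4 or 1y_swim 1, while the others gave adjusted p of 0.0607 to 0.12.

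**Figure D3:**
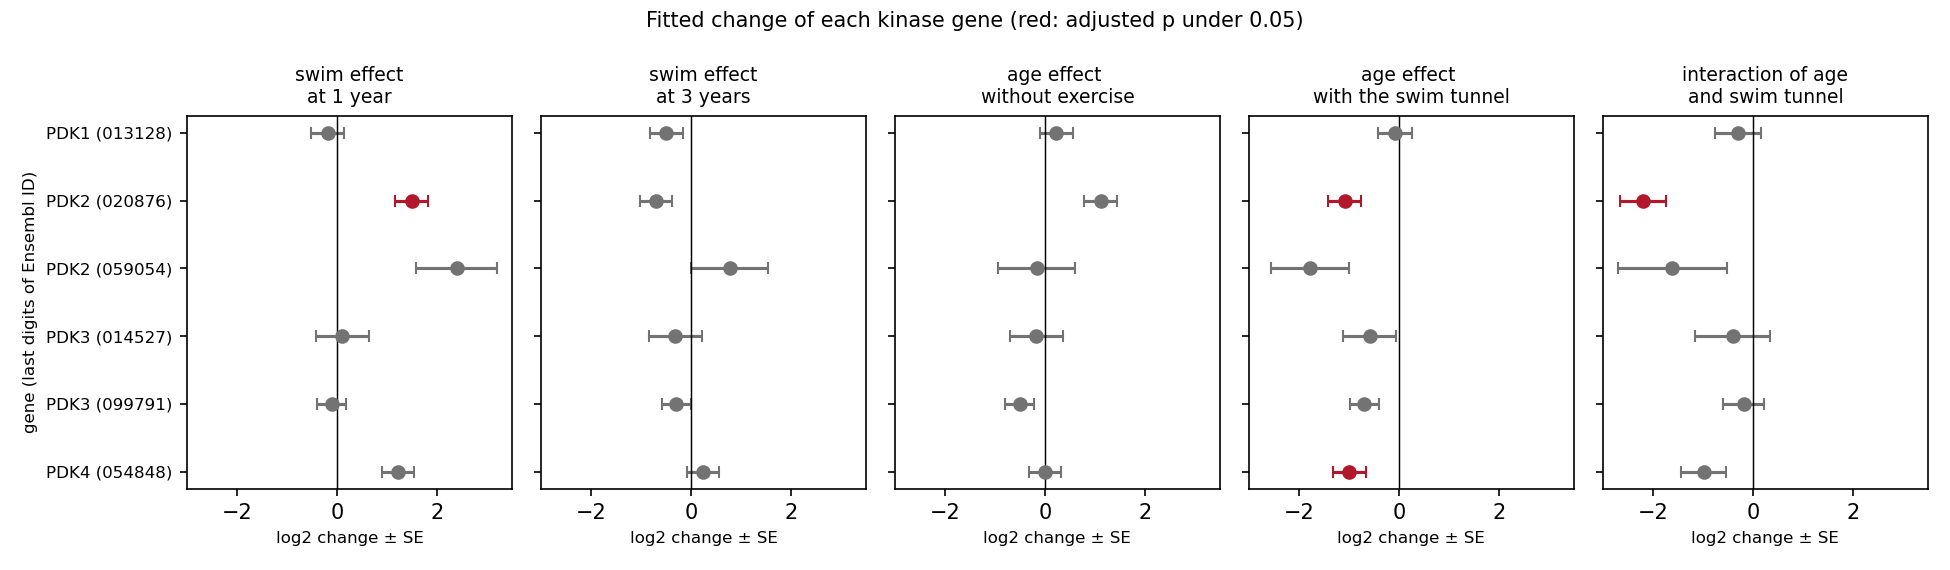
Fitted log2 change of each kinase gene (points, with bars of 1 standard error) in the 5 comparisons of the design, with calls at an adjusted p under 0.05 in red. PDK2 (ENSDARG00000020876) is called in 3 of the 5 panels, at 1.49, -1.09 and -2.20, and PDK4 in 1 panel, at -0.995.

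Among fish with no perturbation, age went with no call in the family, where 1.19% of all genes were called, 0.658% higher and 0.535% lower. By edgeR 1 of 6 members had an unadjusted p under 0.05, against 2701 of the 17025 genes tested. DESeq2 called 1 of 6, and the 1.19% above is the edgeR share, not its own. That member was PDK2 (ENSDARG00000020876), with 119.5 ± 17.0 CPM in 3y_control, against 55.3 ± 15.7 CPM in 1y_control. Its log2 change was 1.11 ± 0.33 with an adjusted p of 0.104 by edgeR and 0.0342 by DESeq2, and it was called by edgeR without 1y_swim 1 (adjusted p = 0.0158). All 3y_control libraries lay above all 1y_control libraries, which holds for 2.16% of all genes tested, against 1.99% in the other direction and 4.14% in either. PDK2 (ENSDARG00000059054) and PDK4 had log2 changes of -0.17 ± 0.77 and -0.01 ± 0.32, with adjusted p of 0.933 and 0.994.

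Among fish of the swim tunnel, 3-year-olds had less message of 2 kinase genes than 1-year-olds. PDK2 (ENSDARG00000020876) fell to 73.1 ± 15.9 CPM in 3y_swim, against 156 ± 77.0 CPM in 1y_swim, a log2 change of -1.09 ± 0.33 with an adjusted p of 0.0266. PDK4 fell to 66.95 ± 36.7 CPM in 3y_swim, against 133.5 ± 43.4 CPM in 1y_swim, a log2 change of -0.995 ± 0.32 with an adjusted p of 0.0387. PDK2 (ENSDARG00000059054) averaged 391 ± 292 CPM in 3y_swim, against 1350 ± 507 CPM in 1y_swim, and its log2 change of -1.79 ± 0.79 did not pass (adjusted p = 0.126). Only 3y_swim 1, at 793 CPM, reached into the 1y_swim range, whose lowest library had 790 CPM. PDK3 (ENSDARG00000099791) had a log2 change of -0.70 ± 0.29 (adjusted p = 0.105).

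The 2 calls of 6 stand against 17.7% of all genes called in this comparison, 10.1% with the older fish lower, so a call is less unusual here than in the other comparisons. None of the 6 members was free of overlap, against 12.9% of all genes, 5.43% with the older fish higher and 7.44% with them lower. All 6 log2 changes were negative, with a median of -0.85, against 0.04 over all genes. With library totals unscaled the median of all genes stood at 0.29 and neither gene was called, with -0.85 (adjusted p = 0.0898) for PDK2 (ENSDARG00000020876) and -0.76 (0.106) for PDK4.

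Leaving out 1 library at a time, PDK2 (ENSDARG00000020876) was called in 15 of 20 fits, not without 1y_swim 2, 1y_swim 4, 1y_swim 5, 3y_swim 3 or 3y_swim 4 (adjusted p 0.0544 to 0.0832). PDK4 was called in 13 of 20, not without 1y_swim 3, 1y_swim 4, 1y_swim 5, 3y_swim 1, 3y_swim 2, 3y_swim 3 or 3y_swim 4 (0.0565 to 0.108). All these losses came from leaving out a library of 3y_swim or 1y_swim. Fits without a control library kept all data of the groups compared, and both calls held in each of those. Without 3y_swim 2, PDK3 (ENSDARG00000099791) was called at -1.03 (adjusted p = 0.0134). Summed marker CPM moved with age here too: 2.99 to 17.2 in 3y_swim, against 41.6 to 257 in 1y_swim, for exocrine pancreas (up to 5 of 19 genes at 0 in a library), 4.89 to 37.8 in 3y_swim, against 86.8 to 988 in 1y_swim, for liver, and 287 to 421 in 3y_swim, against 109 to 247 in 1y_swim, for 16 leukocyte genes. The 6 endothelium genes summed to 115 to 123 CPM in 3y_swim, against 144 to 216 CPM in 1y_swim. Their part in the result was not tested. The comparisons share groups, so their values for a member are not independent of each other.

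Over the 20 libraries, log2 CPM of the members varied together in few of the 15 pairs. PDK1 and PDK3 (ENSDARG00000014527) had a Pearson r of 0.692 (permutation test, adjusted p = 0.00975) and a Spearman rho of 0.698 (adjusted p = 0.0129), with r of 0.522 without the 2 libraries farthest from the median of PDK1 and 0.698 on deviations from group means. PDK2 (ENSDARG00000059054) and PDK4 had an r of 0.618 (permutation test, adjusted p = 0.0271) and a rho of 0.576 (0.0709), with r of 0.577 without 2 libraries and 0.262 within groups. The PDK2 pair had an r of 0.519 (permutation test, adjusted p = 0.0687) and a rho of 0.492 (0.0901), with r of 0.367 within groups. The log2 ratio of RPKM of PDK2 (ENSDARG00000059054) over PDK2 (ENSDARG00000020876) averaged 2.65 in 3y_swim, 1.31 in 3y_control, 3.94 in 1y_swim and 1.82 in 1y_control, with a range of -1.78 to 3.87 within 1y_control alone.

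The rare member PDK3 (ENSDARG00000014527) also followed the TMM factor of the library, with an r of 0.628 (permutation test, adjusted p = 0.0186 over 6 members), a rho of 0.527 (0.105), an r of 0.378 without 2 libraries and of 0.831 within groups. For PDK1 the same r was 0.538 (permutation test, adjusted p = 0.0315) and rho 0.415 (0.105), with an r of 0.519 within groups. Without the 2 libraries farthest from the median factor that r was 0.148, so over all libraries it rests on those. PDK4 and PDK2 (ENSDARG00000059054) had negative r with the factor, -0.532 and -0.480 (permutation test, adjusted p = 0.0315 and 0.0488), with rho of -0.429 and -0.459 (0.105 each) and r of 0.02 and 0.06 within groups. CPM is divided by a library size that contains this factor, so level and factor are not independent. The permutations ran over all libraries regardless of group, so these p-values also take in differences between groups.

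The genes most like each member were sought among 7220 other genes with a proper symbol and a mean log2 CPM of at least 2, by r of log2 CPM over the 20 libraries, which share depth scaling and group structure. PDK2 (ENSDARG00000059054) was most like ucp3, which encodes a mitochondrial uncoupling protein of muscle (r = 0.909, 0.876 within groups). SMOX, encoding spermine oxidase, followed with 0.889, alpk2, an alpha-kinase, with 0.877, KLHL38 with 0.868 and nt5dc2 with 0.848. ucp3 had 239, 278, 117, 157 and 171 CPM in 3y_swim, 73.5, 69.7, 62.8, 110 and 150 CPM in 3y_control, 366, 742, 851, 298 and 461 CPM in 1y_swim, and 18.3, 114, 82.9, 356 and 331 CPM in 1y_control. As for the kinase gene, 1y_control 1 was the lowest and 1y_control 4 and 5 were the highest of that group, but ucp3 overlapped between 1y_swim and 1y_control.

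PDK2 (ENSDARG00000020876) had looser neighbours, led by FOXO4, a forkhead transcription factor (r = 0.747, 0.566 within groups), then CPSF2, a subunit of the mRNA cleavage machinery (0.724), eif4ebp3, a translation repressor (0.701), NUP188, a nuclear pore protein (0.695), and HBP1, a transcriptional repressor (0.690). FOXO4 was also 1 of 27 listed regulators of PDK genes. It had 29.3, 26.6, 26.4, 32.2 and 25.3 CPM in 3y_swim, 27.8, 37.7, 31.6, 31.0 and 31.8 CPM in 3y_control, 25.7, 32.7, 29.6, 31.98 and 41.2 CPM in 1y_swim, and 13.7, 22.9, 17.8, 19.6 and 18.4 CPM in 1y_control. Its 1y_control libraries lay below the libraries of every other group. Of all genes tested, 2.41% have all 1y_swim libraries above all 1y_control libraries, and 2.16% have all 3y_control libraries above them. FOXO4 rose in 1y_swim against 1y_control (log2 change 0.80 ± 0.14, adjusted p = 0.0175) and in 3y_control against 1y_control (0.79 ± 0.14, 0.0117). The first call held in 17 of 20 fits with 1 library left out and in 6 of 12 other alternatives. The second held in 20 of 20 and in 9 of 12. The interaction of FOXO4 was -0.998 ± 0.20 (adjusted p = 0.0407), called in 6 of 20 fits with 1 library left out and in 3 of 11 other alternatives. HBP1 rose in 1y_swim against 1y_control by 1.92 ± 0.28 (adjusted p = 0.00541). HBP1 and FOXO4 were found by likeness to this kinase gene over the same libraries, so their tests are not independent of its own.

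PDK4 was most like smcr8b (r = 0.843), ADIPOR2, an adiponectin receptor (0.835), LFNG, which glycosylates Notch (0.817), SH3TC2 (0.815) and TFEB, a transcription factor of lysosomal genes (0.811), with r of 0.552 to 0.759 within groups. PDK1 was most like BIRC6, an inhibitor of apoptosis, with an r of 0.935 and of 0.941 within groups, followed by DVL1 (0.905), fez2b (0.899), STAG1 (0.894) and NOTCH1 (0.888). PDK3 (ENSDARG00000099791) was most like KPNA3, a nuclear import receptor, with an r of 0.890 and of 0.854 within groups, followed by usp4 (0.883), musk, a receptor kinase of the neuromuscular junction (0.880), ILRUN (0.878) and rxrbb (0.876). PDK3 (ENSDARG00000014527) was below the level required for this search.

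**Figure D4:**
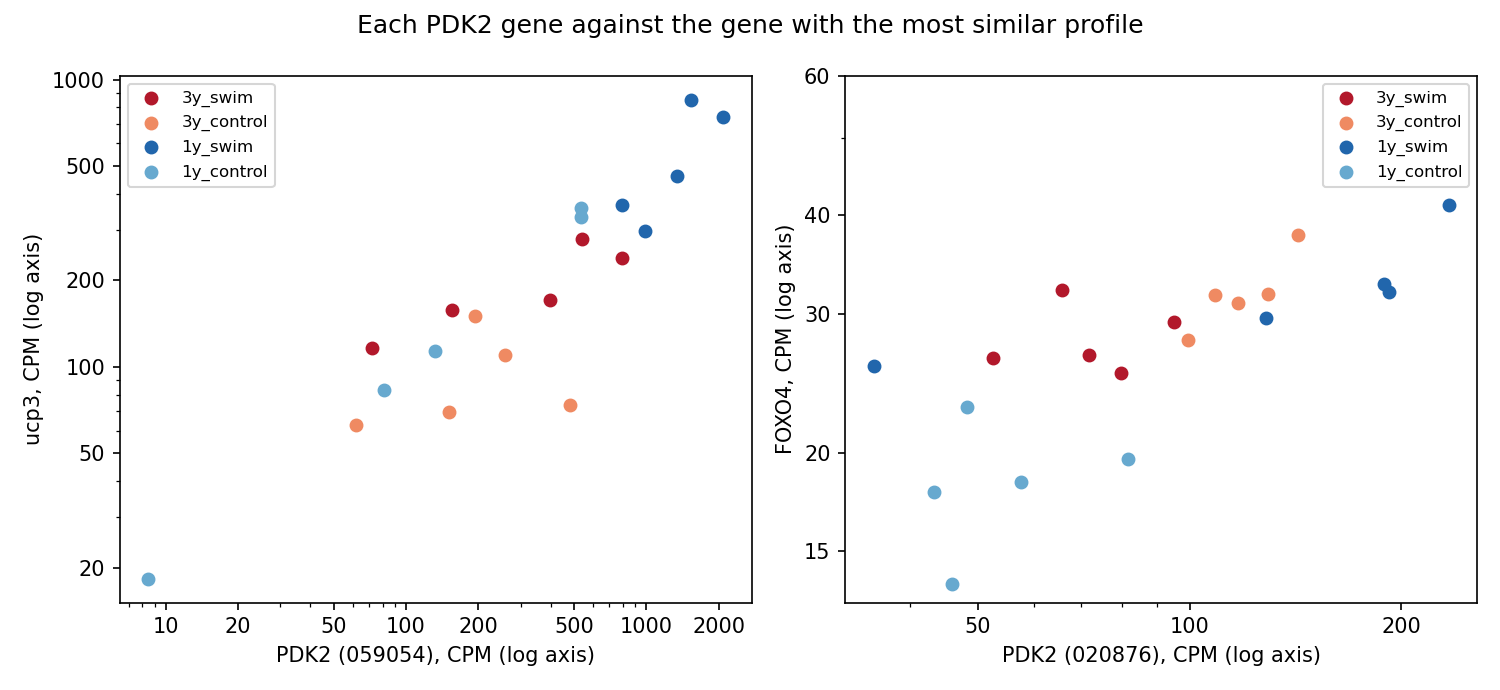
CPM by library (points, both axes log) of PDK2 (ENSDARG00000059054) against ucp3, left, and of PDK2 (ENSDARG00000020876) against FOXO4, right, for 3y_swim, 3y_control, 1y_swim and 1y_control. The left panel runs along 1 diagonal with r = 0.909, and in the right panel the 5 1y_control libraries lie lowest for FOXO4 and 1y_swim 1 lies apart from its group.

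Messages of the enzyme complex that the kinases act on differed between ages in fish of the swim tunnel. All 5 of 5 tested genes of the pyruvate dehydrogenase complex fell in 3y_swim against 1y_swim. In this comparison 17.7% of all genes tested were called, 10.1% lower and 7.59% higher. The log2 changes were -0.62 ± 0.14 for pdha1a, which encodes the phosphorylated subunit (adjusted p = 0.00566), -0.48 ± 0.16 for PDHB (0.0494), -0.88 ± 0.16 for DLAT (0.00108), -0.83 ± 0.14 for DLD (0.000612) and -0.54 ± 0.17 for PDHX (0.032). pdha1a had 510, 508, 418, 486 and 389 CPM in 3y_swim, against 696, 757, 745, 624 and 724 CPM in 1y_swim, with no overlap. The same holds for 12.9% of all genes tested in either direction and for 7.44% with the older fish lower. Leaving out 1 library at a time kept the calls of pdha1a, DLAT and DLD in all 20 fits, that of PDHX in 15 and that of PDHB in 5. PDHX lost its call without 1y_swim 3, 1y_swim 5, 3y_swim 1, 3y_swim 3 or 3y_swim 5, all libraries of the groups compared. PDHB lost its call without each of these too, and also in other fits, some of them without a control library. Of 12 alternatives other than leaving out 1 library, 11 kept the call of DLD, 9 that of DLAT and 8 that of pdha1a. The call of PDHX held in 5 of the 12 and that of PDHB in 2. With library totals unscaled 2 of the 5 were called, a fit to which the 17.7% of all genes does not apply. Alternatives other than leaving out 1 library called 1167 to 3816 genes here, against 3010 in the TMM-scaled fit. In the other 4 comparisons 0 of 5 were called. For the swim tunnel at 1 year all 5 log2 changes were positive, with a median of 0.45, against -0.014 over all genes, 48.7% of them positive. At 3 years all 5 were negative, with a median of -0.27, against -0.009 over all genes, 48.9% of them positive. The 5 genes were measured in the same libraries, so their signs are not independent.

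Of the 3 genes of pyruvate dehydrogenase phosphatases, which oppose the kinases, only PDPR, the regulatory subunit, was called in any comparison. It had 50.4, 61.8, 46.4, 55.8 and 45.6 CPM in 3y_swim, against 73.7, 69.3, 89.9, 70.0 and 95.9 CPM in 1y_swim, a log2 change of -0.62 ± 0.13 (adjusted p = 0.0034). The catalytic subunits PDP1 and PDP2 had log2 changes of 0.12 ± 0.29 and -0.44 ± 0.35 in that comparison and were not called. BCKDK, the related kinase of branched-chain ketoacid dehydrogenase, fell by 0.72 ± 0.17 in 3y_swim against 1y_swim (adjusted p = 0.00648). With library totals unscaled neither PDPR nor BCKDK was called.

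Of 14 tested genes of pyruvate and lactate handling, 8 fell and 0 rose in 3y_swim against 1y_swim, among them genes of both subunits of the mitochondrial pyruvate carrier, MPC1 with -1.09 ± 0.19 (adjusted p = 0.000808) and 1 of 2 MPC2 genes (ENSDARG00000024478) with -1.08 ± 0.16 (0.000308), and LDHA, a lactate dehydrogenase, with -0.58 ± 0.13 (0.00421). In 1y_swim against 1y_control 2 of the 14 rose, the monocarboxylate transporter genes SLC16A4 with 2.81 ± 0.53 (0.0185) and SLC16A3 (ENSDARG00000045051) with 1.48 ± 0.30 (0.0269). Of 24 genes known from mammals to move with PDK4 in fasting muscle, 3 rose in 1y_swim against 1y_control: ANGPTL4, a lipoprotein lipase inhibitor, with 1.84 ± 0.37 (0.0254), LPIN1, a phosphatidate phosphatase, with 1.36 ± 0.27 (0.023), and trim63b, a muscle ubiquitin ligase, with 1.77 ± 0.31 (0.0175). Of the same 24 genes, 9 fell in 3y_swim against 1y_swim, those 3 and ACADM, ACADVL, CPT1B, cpt1ab, HADHA and hadhaa of fatty acid oxidation, with -1.67 to -0.96. At 1 year 0.793% of all genes tested rose, and 10.1% fell in 3y_swim against 1y_swim. None of SLC16A4, SLC16A3 (ENSDARG00000045051), ANGPTL4, LPIN1 and trim63b was called there without 1y_control 1, 1y_control 2, 1y_control 3 or 1y_swim 2, each left out alone, with adjusted p of at most 0.084, and none of the 24 and none of the 14 without both 1y_swim 2 and 1y_swim 3. For age with the swim tunnel, 4 of the 14 and 8 of the 24 were called lower with library totals unscaled. Without the libraries high in epidermis markers (3y_swim 1, 3y_swim 3 and 1y_control 5), 5 of the 14 and 5 of the 24 were called lower. The 10.1% of all genes does not apply to these fits.

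Of 27 tested regulators named for PDK genes, 2 rose and 5 fell in 3y_swim against 1y_swim: both MYC genes rose, with 1.17 ± 0.31 and 1.096 ± 0.31, and both EPAS1 genes, which encode a hypoxia-inducible factor subunit, foxo3b, 1 of 2 RXRA genes (ENSDARG00000057737) and rxrga fell, with -1.58 to -0.83. With 1 library left out 2 to 6 regulators were called lower: EPAS1 (ENSDARG00000008697), foxo3b and rxrga all lost their calls without 1y_swim 5, 3y_swim 3 or 3y_swim 4, and EPAS1 (ENSDARG00000008697) and rxrga without 1y_swim 1 or 3y_swim 1. With library totals unscaled 3 rose and 1 fell, and without the libraries high in epidermis markers 1 rose and 1 fell. HIF1A fell by 0.51 ± 0.11 in 3y_control against 1y_control (adjusted p = 0.0238), a comparison in which PDK1 had 0.22 ± 0.33 and was not called. A link between these genes was not tested. The HIF1A call held in 6 of 12 alternatives other than leaving out 1 library. It held in 16 of 20 fits with 1 library left out, not without 1y_control 1, 1y_control 3, 3y_control 2 or 3y_control 5. All these are libraries of the groups compared. For the swim tunnel at 3 years no gene of these lists was called, where 12 genes were called in all. Beside the counts of the TMM-scaled fit to all 20 libraries, 7.59% of all genes rose and 10.1% fell in 3y_swim against 1y_swim.

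**Figure D5:**
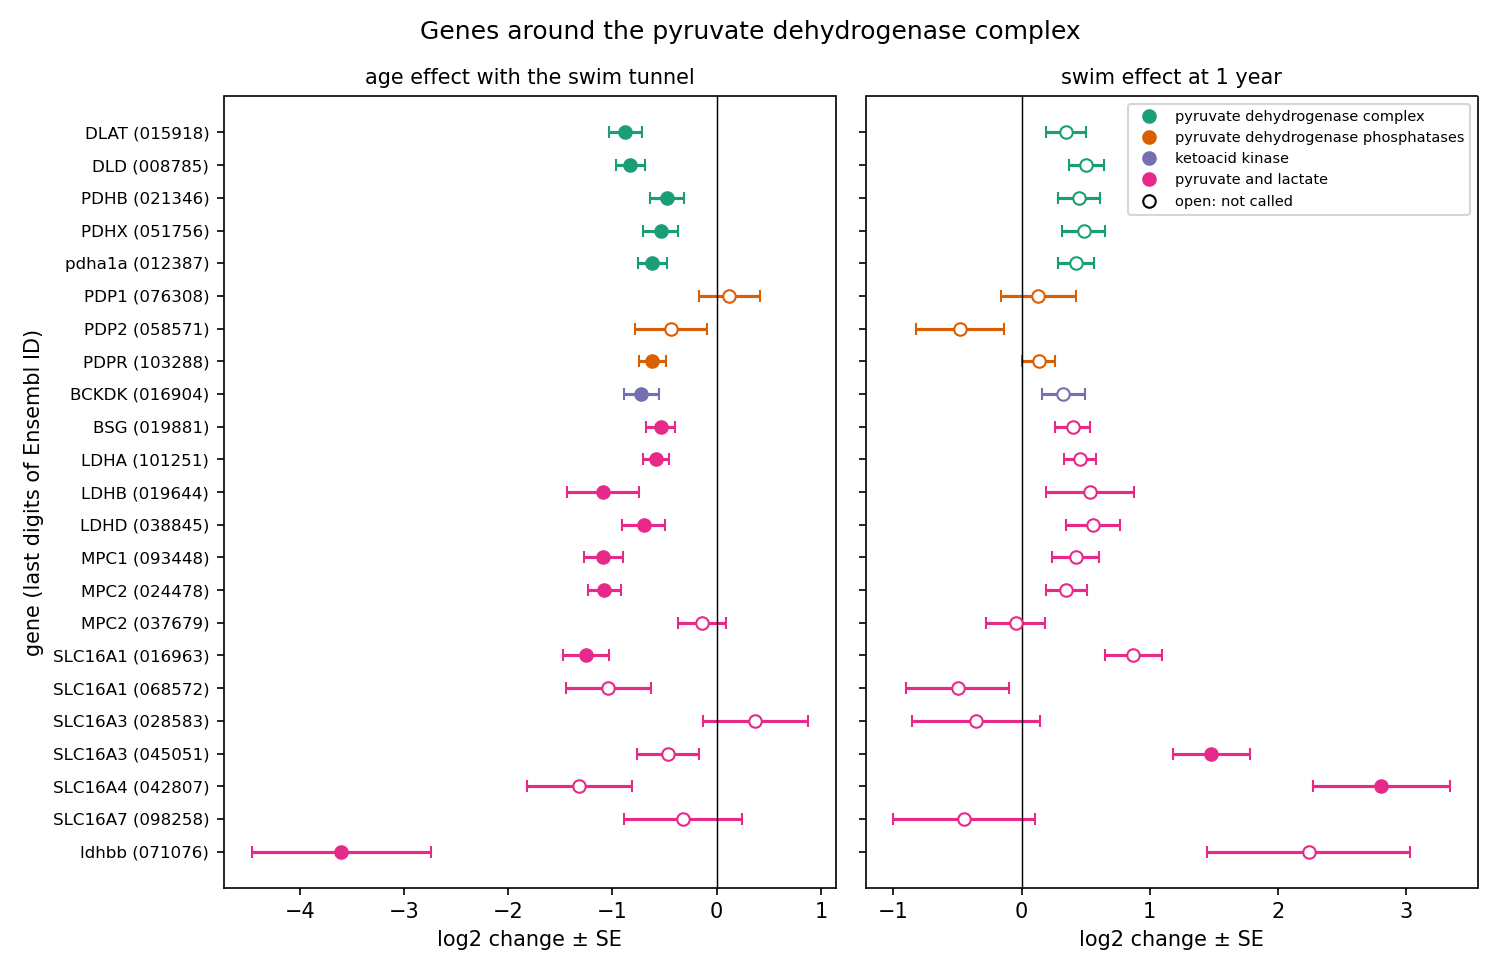
Fitted log2 change (points, with bars of 1 standard error) of genes of the pyruvate dehydrogenase complex, its phosphatases, the ketoacid kinase and pyruvate and lactate handling, for 3y_swim against 1y_swim, left, and 1y_swim against 1y_control, right, with axes of different range; filled points are called at an adjusted p under 0.05. Left, all 5 genes of the complex lie between -0.88 and -0.48 and are called; right, all 5 lie above 0 and none is called.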

How the data were processed

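Per the submitters' processing notes, bcl2fastq 1.8.4, STAR 2.4.1d and featureCounts 1.4.6-p4 were used with the genome build GRCz10; the annotation release and strand setting are not given in the sources used here. Libraries were made with the TruSeq RNA kit v2, per the labels' protocols. The authors deposited a table of raw counts per gene and a table named as RPKM, whose values are read as a score. Over 406 genes, the coefficient of variation of the gene lengths its values imply has a median of 1.17e-06 if library totals are taken in turn down the table, and of 0.133 if each library's own total is used. Gene lengths for RPKM were taken from it with totals in turn (1525 to 4810 bases for the 6 members), and its values otherwise serve as an alternative only.

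The low-count filter was filterByExpr (edgeR 4.0.16, R 4.3.3), which left 17025 of 32105 genes, and counts were scaled by TMM and fitted with 4 group means and robust dispersions over all 20 libraries. P-values came from the quasi-likelihood F-test with Benjamini-Hochberg adjustment across the tested genes, and a call is an adjusted p under 0.05. Standard errors of log2 changes were derived from that test, as the absolute log2 change divided by the square root of F. They are therefore not independent of the p-values. Standard deviations are over 5 libraries. Of 40 pairs of replicates, counts differed by 39.1 to 241 chi-square per degree of freedom, far beyond counting error. Permutation tests used 1e+05 resamples, two-sided. Members and lists were chosen with earlier results of these data known. List genes are named where called in a comparison or highest of their list, and for each member the 5 genes with the highest r were sought. Symbols came from an Ensembl name table. DESeq2 1.42.0, voom and limma-trend (limma 3.58.1, log2 of score plus 1 or 0.1), other scaling, other filters, fewer groups and leaving out libraries are alternatives. Of other marker lists, summed CPM over all libraries was 331 to 1659 for slow fibre, 525 to 4815 for epidermis, 325 to 853 for nerve and glia, 59.8 to 273 for erythrocytes, 175 to 387 for adipocytes, 115 to 216 for endothelium and 0.740 to 73.5 for heart muscle.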

Additional observations from a re-analysis of the deposited data

Results flagged for a closer look

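PDK2 (ENSDARG00000020876) had swim effects that differed between ages by -2.20 on the log2 scale (3 years minus 1 year, adjusted p = 0.0457, edgeR interaction test). The swim libraries were lower in 5 of 5 at 3 years than all controls, and higher in 4 of 5 at 1 year. With 1 library left out the difference stayed at -2.46 to -2.02, and 18 of 20 fits gave no call, with adjusted p of 0.0607 to 0.12.

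In 3 of 24 sets of 5 libraries (1 member in 1 group) the highest library stood apart from the others by Dixon's criterion. Chance meets it in about 1 of 20 sets if values are normally distributed. It was applied to CPM without taking logs, and their distribution was not tested, so that rate need not hold here. PDK3 (ENSDARG00000099791) had 39.0 CPM in 3y_swim 2, where the other 4 libraries had 12.7 to 20.2 CPM. The same gene had 50.4 CPM in 1y_control 3, above 31.8 to 36.7 CPM in the others. PDK4 had 100.5 CPM in 1y_control 4, above 37.0 to 54.6 CPM in the others of that group.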

How the results depend on the processing

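PDK2 (ENSDARG00000020876) kept the direction of its change in all 5 comparisons under the alternatives tried, but often not its call. Over the 6 members, 813 recomputed log2 changes kept direction and side of the threshold, 70 lost a call, 11 gained one and 50 changed sign. The 813 include all uncalled changes that stayed uncalled, and only called changes could lose a call. For the swim tunnel at 1 year PDK2 (ENSDARG00000020876) lost its call in 14 fits and kept it in 18. It lost it in 13 and kept it in 19 for age with the tunnel, and in 27 against 4 for the interaction. PDK4 lost its call in 16 fits and kept it in 16 for age with the tunnel. The libraries left out for high epidermis markers (1y_control 5, 3y_swim 1 and 3y_swim 3) or low TMM factors (1y_swim 2 and 1y_swim 3) were chosen after seeing the data. Why values moved was not tested. Fits with fewer libraries also have fewer degrees of freedom, and the part of this was not tested either. No paired analysis was possible because the labels give the groups no shared replicate numbers. PDK3 (ENSDARG00000014527) had 4 to 82 counts per library, and how much of its spread is counting error was not tested.

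For the swim tunnel at 1 year, 0 members were called without the low-count filter, on the deposited scaled values (pseudocount 1 or 0.1, or unfiltered), without epidermis-high libraries, without lowest-TMM libraries or with only the groups compared, and 3 by DESeq2. PDK2 (ENSDARG00000020876) then had log2 changes of 1.43 unfiltered (adjusted p = 0.0602), 1.06 by voom (0.203), 0.81, 0.84 and 0.81 on scaled values (0.215, 0.211 and 0.318), 1.47 without epidermis-high libraries (0.0617), 1.47 without lowest-TMM libraries (0.258) and 1.43 with only the groups compared (0.172). PDK2 (ENSDARG00000059054) was called by DESeq2 (2.35, adjusted p = 0.0469) and voom (3.50, 0.0429). With 1 library left out, 0 to 2 members were called and the PDK2 (ENSDARG00000020876) change was 1.31 to 1.75.

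For age with the swim tunnel, 0 members were called with unscaled totals, on scaled values, without epidermis-high or lowest-TMM libraries or with only the groups compared, 1 unfiltered and 1 by voom. The member called by voom was not PDK2 (ENSDARG00000020876). Of the 12 alternatives other than leaving out 1 library, PDK2 (ENSDARG00000020876) was called in 4, PDK4 in 3 and PDK3 (ENSDARG00000099791) in 1. The change of PDK2 (ENSDARG00000020876) was -0.85 with unscaled totals (adjusted p = 0.0898), -0.61 by voom (0.336), -0.58, -0.60 and -0.58 on scaled values (0.349, 0.349 and 0.444), -1.07 without epidermis-high libraries (0.117), -1.07 without lowest-TMM libraries (0.0779) and -1.08 with only the groups compared (0.0871). With 1 library left out it was -1.35 to -0.90, with 0 to 2 members called.

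For the interaction, 0 members were called with RLE sizes, unscaled totals, no filter, voom, scaled values or without either set of libraries. PDK2 (ENSDARG00000020876) had -2.18 with RLE sizes (adjusted p = 0.0506), -1.92 with unscaled totals (0.122), -2.14 unfiltered (0.0904), -1.81 by voom (0.205), -1.60, -1.65 and -1.60 on scaled values (0.528, 0.519 and 0.691), -2.18 without epidermis-high libraries (0.285) and -2.17 without lowest-TMM libraries (0.168); DESeq2 kept the call at -2.18 (0.00117). With 1 library left out it was -2.46 to -2.02, with 0 to 1 members called.

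For age without the swim tunnel, 1 member was called by DESeq2 and with only the groups compared, PDK2 (ENSDARG00000020876) at 1.08 (adjusted p = 0.0342) and 1.098 (0.0366), and with 1 library left out its change was 1.04 to 1.29, with 0 to 1 members called. The change of PDK2 (ENSDARG00000059054) turned to 0.77 by voom, 0.54, 0.59 and 0.54 on scaled values and 0.24 without epidermis-high libraries, and ran from -0.63 to 0.28 with 1 library left out.

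Other signs that turned belong to uncalled changes. At 1 year the swim effect was 0.22 for PDK1 and 0.12 for PDK3 (ENSDARG00000099791) without lowest-TMM libraries, and -0.22 with unscaled totals and -0.096 on unfiltered scaled values for PDK3 (ENSDARG00000014527). At 3 years it was 0.0025 for PDK3 (ENSDARG00000099791) without epidermis-high libraries and -0.031, -0.041 and -0.031 for PDK4 on scaled values. Age without the tunnel gave 0.062 by voom and 0.10 without epidermis-high libraries for PDK3 (ENSDARG00000014527), and 0.0035 by voom and 0.0020, 0.0043 and 0.0020 on scaled values for PDK4. Age with the tunnel gave PDK1 0.14 with unscaled totals and 0.11, 0.21 and 0.11 on scaled values. The interaction gave PDK1 0.063 on scaled values (pseudocount 0.1) and PDK3 (ENSDARG00000099791) 0.064 with unscaled totals, 0.019 on scaled values and 0.17 without epidermis-high libraries. With 1 library left out, signs also turned for PDK3 (ENSDARG00000014527) (swim at 1 year -0.41 to 0.38, age without the tunnel -0.33 to 0.10, interaction -0.68 to 0.095), PDK3 (ENSDARG00000099791) (swim at 1 year -0.20 to 0.036), PDK4 (swim at 3 years -0.14 to 0.39, age without the tunnel -0.13 to 0.29) and PDK1 (age with the tunnel -0.27 to 0.093).

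Over all genes, 194 were called for the swim tunnel at 1 year and 0 to 1748 under the alternatives, 12 and 1 to 107 at 3 years, 203 and 15 to 720 for age without the tunnel, 3010 and 1167 to 3816 for age with it, and 57 and 2 to 407 for the interaction.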
